A study of Mus musculus with 42 samples.

Results

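Carboxylesterases are serine hydrolases that cleave ester bonds in lipids, drugs and environmental toxicants. In the liver most of them sit in the lumen of the endoplasmic reticulum of hepatocytes, where some release fatty acids from stored triglyceride for the assembly of very low density lipoprotein. Mice carry many more copies of these genes than humans do, in tandem arrays. The genes described here were the 10 carboxylesterase genes Ces1b, Ces1c, Ces1d, Ces1e, Ces1f, Ces1g, Ces2a, Ces2c, Ces3a and Ces3b, out of 19758 genes listed in any of 6 deposited comparison tables. They were proposed with earlier results of these data known and are not the whole family. All 10 were listed, and all 10 passed the filter on low values, in every table.

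Whole liver RNA was sequenced from 42 male C57BL/6J mice, 7 in each of 6 groups, with 1 library per mouse. WT mice were littermates of ChemR23 KO mice, which had been made by CRISPR/Cas9 editing and lack the receptor that is encoded by Cmklr1 and binds the lipid mediator resolvin E1 (RvE1). From 6 weeks of age, lean groups ate a diet with 10% of its energy as fat and obese groups a high fat diet with 60%, for 15 weeks. WT lean, WT obese, KO lean and KO obese mice were vehicle controls (ethanol and PBS), while WT obese+RvE1 and KO obese+RvE1 mice received 300 ng RvE1 intraperitoneally on 4 consecutive days before harvest on day 5, after at least 4 h of fasting. RvE1 was given only to obese mice, and the deletion was present in the whole animal.

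Between 15992525 and 43841120 reads per mouse (median 24298289) fell on listed genes. Cmklr1 had normalized counts of 39.2 to 110 in WT lean, 30.1 to 92.7 in WT obese, 10.7 to 24.9 in KO lean and 5.29 to 23.8 in KO obese mice, and in both tables that held both genotypes all KO libraries lay below all WT libraries. The edited stretch of Cmklr1 is not given in the sources used here, so the remaining reads could not be placed against it. The 10 hepatocyte markers were listed and above 0 in every library. In bulk liver, fewer cells of a type and less RNA per cell cannot be told apart.

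The 6 Ces1 members lay side by side on the minus strand of chromosome 8 (chr8:93056728-93337308, GRCm38), and the 4 Ces2 and Ces3 members on the plus strand 11.4 Mb away (chr8:104734003-105093929). Each is a protein-coding gene with 12 to 14 exons in its transcript of most exons. Pairs of neighbours are close copies. Over aligned annotated transcripts, Ces3a and Ces3b were 95.4% identical, Ces1b and Ces1c 91.1%, and Ces2a and Ces2c 81.9%. Of all 100-base stretches of a transcript, 16.0% in Ces2c, 10.7% in Ces2a, 9.09% in Ces3a and 7.68% in Ces3b also occurred in another annotated gene, against 1.29% in Ces1b, 1.39% in Ces1c and 0% in the other 4. Of 50-base stretches, 16.98% in Ces1c and 11.59% in Ces1b also occurred in another gene, most often in each other. The share was 22.24% (Ces2a) to 42.22% (Ces2c) in the Ces2 and Ces3 members. Reads could therefore move between Ces3a and Ces3b, between Ces2a and the gene Gm7208, between Ces2c and the pseudogene Ces2d-ps, or between Ces1b and Ces1c. The values of these genes are less certain than those of Ces1d, Ces1e, Ces1f and Ces1g. In WT lean mice Ces1c had a mean normalized count of 25513 and Ces1b one of 469. A small share of misplaced Ces1c reads would thus weigh on Ces1b. The paper gives no read length, and how many reads moved was not tested.

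The sequences just before the start sites show how alike the Ces1 copies are, and are printed because Ces1b and Ces1g differed between diets while Ces1c and Ces1e did not pass the test. RefSeq windows (GRCm38.p6) were given for 7 of the 10 members, with none for Ces1d, Ces1f and Ces3a. Stretches upstream of the RefSeq start are shown 5′ to 3′ on the gene strand, shortened for Ces1b and Ces1g to keep at most 20 bases of an exon annotated by GENCODE. Capitals mark TTATGTAA (TTACATAA on the other strand), the D-box sequence that is known to be bound by the transcription factors DBP, TEF, HLF and NFIL3.
Ces1b, chr8:93079998-93080190, minus strand: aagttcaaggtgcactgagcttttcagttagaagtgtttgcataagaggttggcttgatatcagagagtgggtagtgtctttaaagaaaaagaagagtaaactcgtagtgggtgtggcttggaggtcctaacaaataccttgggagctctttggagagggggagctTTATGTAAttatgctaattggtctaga
Ces1c, chr8:93131284-93131533, minus strand: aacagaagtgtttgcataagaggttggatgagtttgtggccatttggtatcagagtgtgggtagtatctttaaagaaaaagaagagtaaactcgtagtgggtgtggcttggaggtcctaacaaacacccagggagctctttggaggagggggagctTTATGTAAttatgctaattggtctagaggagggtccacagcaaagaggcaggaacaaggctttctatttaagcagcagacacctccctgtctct
Ces1e, chr8:93229620-93229869, minus strand: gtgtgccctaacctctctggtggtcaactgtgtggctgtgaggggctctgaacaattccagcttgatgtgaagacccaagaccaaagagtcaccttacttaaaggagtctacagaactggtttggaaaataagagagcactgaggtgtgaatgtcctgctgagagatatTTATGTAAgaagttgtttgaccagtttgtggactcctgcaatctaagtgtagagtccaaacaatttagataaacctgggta
Ces1g, chr8:93337289-93337459, minus strand: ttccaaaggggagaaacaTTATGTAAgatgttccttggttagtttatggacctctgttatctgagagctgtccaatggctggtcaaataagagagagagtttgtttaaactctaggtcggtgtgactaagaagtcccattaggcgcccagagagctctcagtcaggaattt
Over 223 aligned bases, the upstream windows of Ces1b and Ces1c were 93.3% identical, with 15 mismatches, while those of Ces1b and Ces1g were 62.1% identical. The 8 letters in capitals started 84 bases before the RefSeq start in Ces1b, 94 in Ces1c, 81 in Ces1e and 232 in Ces1g. Of 2 RefSeq starts listed for Ces1b, the one farther downstream was used. These distances depend on the start used. The GENCODE starts of Ces1b (93080017) and Ces1g (93337308) lie upstream of the RefSeq starts used (93079940 and 93337209). The 8 letters stood upstream of 4 of the 7 members with a window and of 0.977% of 27025 genes (0.819% of all 32851 windows of 250 bases). The string was picked after these sequences had been read, and duplicated genes share sequence by descent. Among 4 strings searched beside it on both strands, none containing another, CCAAT stood upstream of 6 of the 7 members (37.5% of all genes), TATAAA of 2 (14.3%), AGGTCA of 1 (15.8%) and GTTAAT of 1 (7.49%). A match is a run of letters and was not tested for binding.

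The members together took 0.231% to 0.450% of the reads of a library. Levels of different genes were compared as normalized count per kilobase of exon sequence (annotated exons merged). Ces1c, which encodes a carboxylesterase secreted into plasma, was the most abundant member in WT lean mice at 10983 ± 2306 per kb (SD, n = 7), and Ces3a followed at 8945 ± 1294. Ces3b was at 3252 ± 1009 per kb. Ces1d, also known as triacylglycerol hydrolase and involved in mobilising liver triglyceride, was at 2751 ± 2052. Both were far below the leading pair, and they did not separate from each other, with Ces3b above Ces1d in 5 of 7 mice. Ces1f, another triacylglycerol hydrolase, stood at 1514 ± 230 per kb. Ces2a was at 938 ± 207, and Ces1e, also called egasyn, which holds beta-glucuronidase in the endoplasmic reticulum, was at 861 ± 136. Ces2a, an acylglycerol hydrolase, exceeded Ces1e in only 4 of 7 WT lean mice. Ces1g, a lipid hydrolase of hepatocytes, was at 612 ± 186 per kb, Ces1b at 239 ± 62.8 and Ces2c, another acylglycerol hydrolase, at 135 ± 61.4. With the longest transcript as the length, Ces1f would stand at 2583 and Ces1c at 13957.

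That order was nearly the same in all 6 groups by group mean. Ces1c ranked 1, Ces3a 2, Ces1f 5, Ces1b 9 and Ces2c 10 in every group. Ces3b and Ces1d exchanged ranks 3 and 4, and Ces1e, Ces1g and Ces2a exchanged ranks 6 to 8. Spread between mice of a group differed between members. The median coefficient of variation over the 6 groups was lowest for Ces3a (17.4%, range 14.5% to 21.7%), and the highest in a group was 74.6% for Ces1d.

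The first comparison asked how 15 weeks of high fat diet changed the liver of WT mice. Of the 10 members, 2 were higher in WT obese than in WT lean mice (limma on log2 of the normalized count + 1, BH-adjusted p under 0.1), against 6.27% of 14012 genes called and 3.65% called higher (512 higher and 366 lower, or 349 and 161 with equal read totals). Ces1b had normalized counts of 341, 435 and 652 (lowest, median and highest) in WT lean mice and of 915, 1120 and 1468 in WT obese mice. No obese mouse overlapped the lean mice, which held for 1.36% of genes tested. The log2 fold change of Ces1b was 1.34 ± 0.16 (SE, adjusted p = 0.000303), a fold of 2.54, and only 6 genes had a smaller p. Ces1g had 921, 1431 and 2214 in WT lean and 1455, 2808 and 3141 in WT obese mice. Here 5 of the 7 obese mice were above the highest lean mouse, with a log2 fold change of 0.76 ± 0.22 (adjusted p = 0.0669).

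The call on Ces1g in WT mice depended on single mice. It was lost in 7 of 14 fits that left out 1 mouse (WT lean replicates 1, 6 and 7 and WT obese replicates 2, 5, 6 and 7, adjusted p 0.0374 to 0.132 over the 14) and with the number of the mouse identifier as a block (adjusted p = 0.167), where Ces1b kept its call (adjusted p = 0.00286). The other 8 members did not pass, with log2 fold changes of -0.30 (Ces2a) to 0.56 (Ces1d). Ces1c, the near copy of Ces1b, had 18312, 27600 and 32106 in WT lean and 16235, 26608 and 32472 in WT obese mice, with a log2 fold change of -0.01 and a 95% confidence interval of -0.37 to 0.36. The ratio of Ces1b to Ces1c thus differed between diets. For every 100 normalized counts of Ces1c there were 1.30 to 2.06 of Ces1b in WT lean and 3.22 to 5.91 in WT obese mice, a ratio chosen after the values were seen and given without a test. The interval of Ces1d was -0.19 to 1.32, that of Ces1e -0.08 to 0.61 and that of Ces1f -0.31 to 0.30. The remaining intervals were -0.73 to 0.13 for Ces2a, -0.42 to 1.07 for Ces2c, -0.24 to 0.39 for Ces3a and -0.23 to 0.63 for Ces3b. The median log2 fold change was 0.23 over the 10 members and 0.00 over all genes tested.

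**Figure D1:**
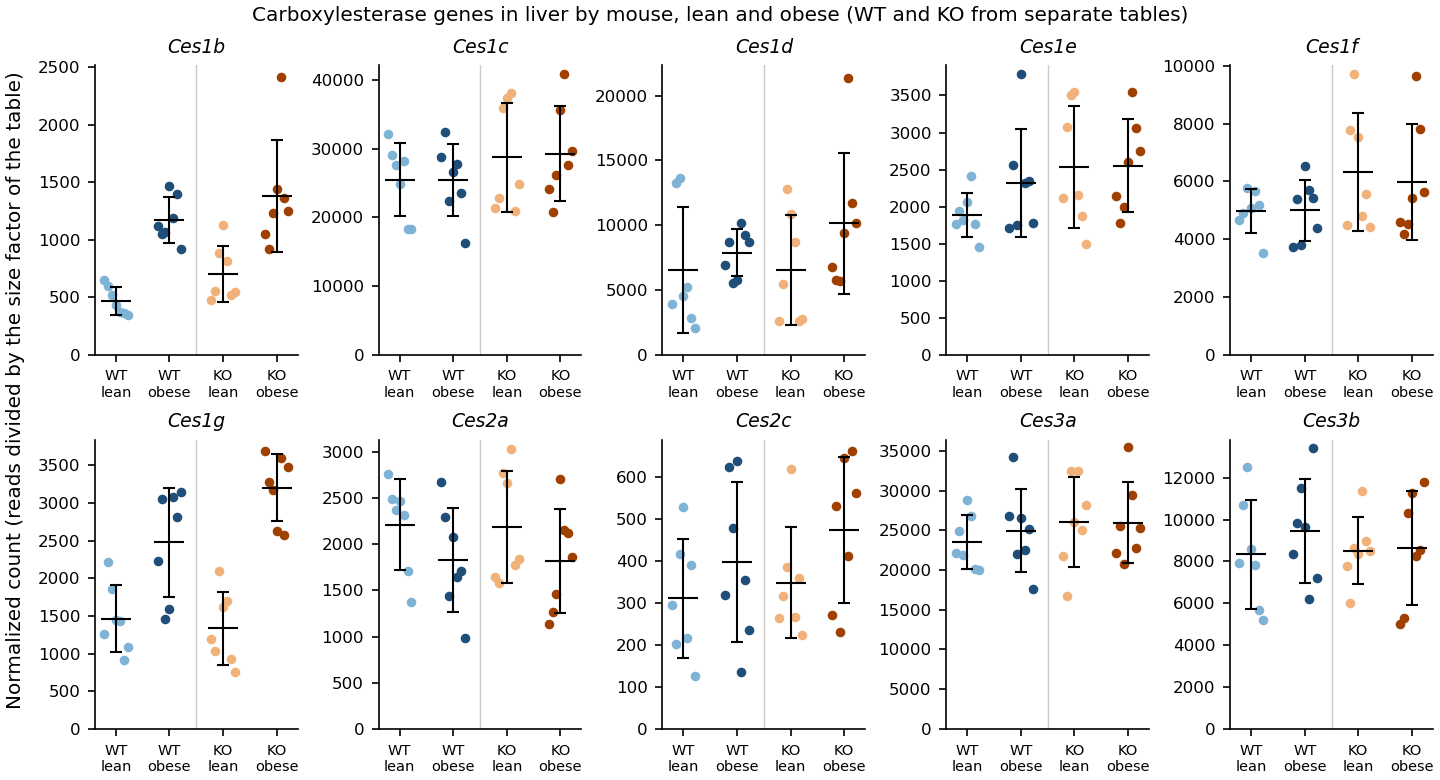
Normalized counts (y axes, from 0) of the 10 members in each mouse by genotype and diet (x axes). Points are mice, and bars are mean ± SD (n = 7). Ces1b rose in obese mice of both genotypes, with no overlap in WT, and Ces1g in both, with no overlap in KO, while Ces1d was spread widely within groups.

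The second comparison asked the same of ChemR23 KO mice, and again Ces1b and Ces1g were the 2 members that rose, against 24.1% of 14213 genes called and 12% called higher (1704 higher and 1718 lower, or 2555 and 628 with equal read totals). The members' share was not far from that background. Ces1g had 762, 1195 and 2094 in KO lean and 2579, 3275 and 3694 in KO obese mice. All 7 obese mice lay above all lean mice, as in 2.1% of genes tested. Its log2 fold change was 1.33 ± 0.19 (adjusted p = 0.00202), and 17 genes had a smaller p. Ces1b had 477, 552 and 1131 in KO lean and 919, 1245 and 2412 in KO obese mice. Here 5 obese mice exceeded the highest lean mouse, with a log2 fold change of 0.98 ± 0.22 (adjusted p = 0.0112). Both calls held in each of 14 fits without 1 mouse and with the block (adjusted p = 0.0123 for Ces1g and 0.0337 for Ces1b). The block used a common correlation for all genes (0.26 in the WT and 0.24 in the KO diet comparison). For Ces1g and Ces1b, 66.8% and 57.2% of the within-group variance lay between identifier numbers. The block may therefore correct too little for these genes in both genotypes.

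The other 8 members did not pass in KO mice. Ces1d had the largest of their differences, 0.78 ± 0.40 on the log2 scale (adjusted p = 0.188, 95% confidence interval -0.06 to 1.62). Ces2c had a log2 fold change of 0.42 ± 0.26 (interval -0.13 to 0.96) and Ces2a one of -0.28 ± 0.20 (-0.71 to 0.15). Ces1c, Ces1e, Ces1f, Ces3a and Ces3b had log2 fold changes of -0.08 to 0.04. For every 100 normalized counts of Ces1c there were 2.15 to 3.03 of Ces1b in KO lean and 4.03 to 5.89 in KO obese mice, again without overlap.

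Markers of another cell type moved with diet in KO mice. The summed normalized count of the 9 listed of 10 Kupffer cell and macrophage markers was 10428 to 21242 in KO lean and 5909 to 8307 in KO obese mice, and 7 of the 9 fell (C1qa by 0.89 and Vsig4 by 0.73 on the log2 scale), 6 of them also with the block. In WT mice the sum was 3892 to 8639 in lean and 4628 to 7965 in obese mice, with none called. The 10 hepatocyte markers together ran from 1422510 to 1884200 in KO lean and from 1300720 to 2031910 in KO obese mice. Of 8 endothelial markers 4 fell in KO obese mice, of 8 stellate cell markers 1 fell in each genotype, and 1 of 10 hepatocyte markers rose (Cyp2e1, 0.55 ± 0.19). Of 3 fat cell markers tested, Car3 rose in KO obese mice (2.06 ± 0.46), but the median of the 3 was -0.12, so the list did not rise as a set. Whether the reads of Car3 came from fat cells was not tested. Of these endothelial, stellate, hepatocyte and fat cell calls, the block kept that of Car3 alone. None of the bile duct, erythroid and acinar markers tested (5, 2 and 1) was called in either diet comparison. The part of these cells in the values of the members was not tested.

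Whether the diet difference itself differed between genotypes was tested as an interaction over 28 libraries. None of the 10 members passed (limma), against 0.00718% of 13924 genes called and 2553 genes at an unadjusted p under 0.05, none of them a member. For Ces1g the KO difference exceeded the WT difference by 0.57 ± 0.30 on the log2 scale (95% confidence interval -0.05 to 1.20, adjusted p = 0.307). With library quality weights, which called 18.4% of all genes, it was 0.81 (adjusted p = 0.0533, called), the only member of the 10. For Ces1b the interaction was -0.37 ± 0.28 (interval -0.94 to 0.21). Both intervals were wide and took in no difference. That of Ces1g lay mostly above no difference and that of Ces1b mostly below it.

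**Figure D2:**
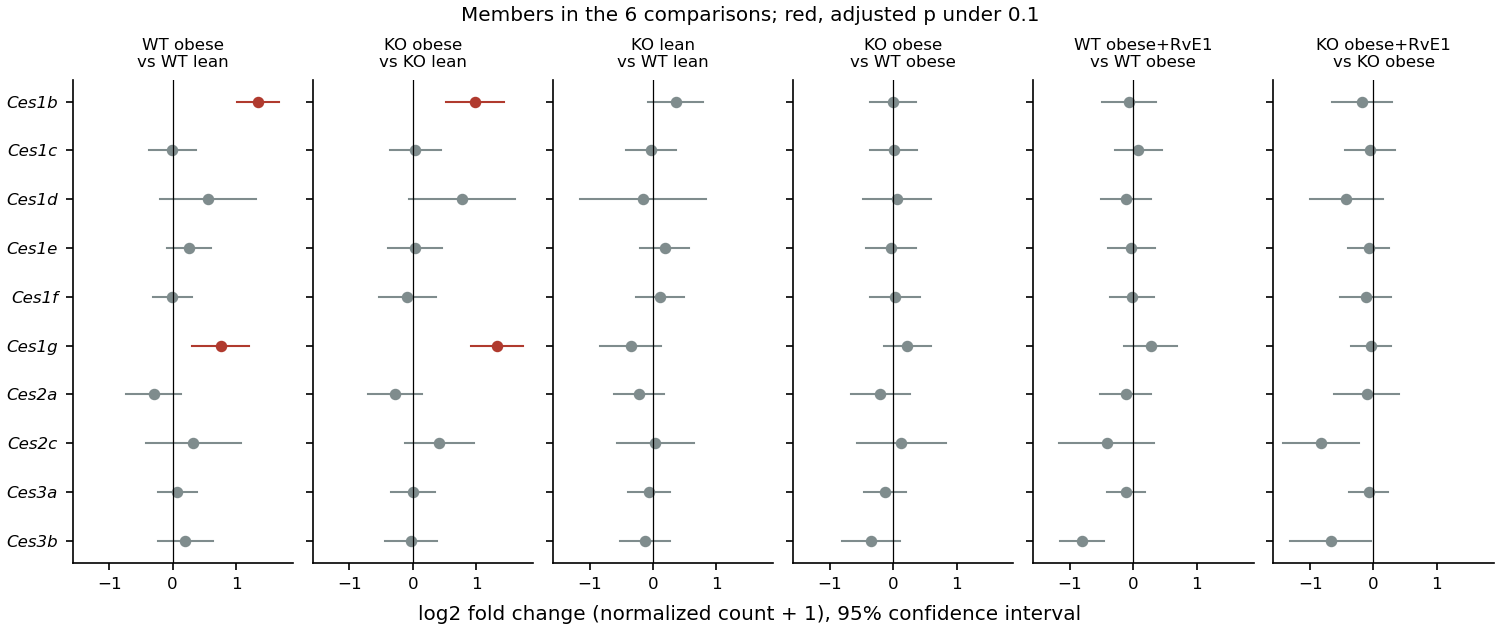
Log2 fold change (x axes, on normalized count + 1) of each member (rows) in the 6 comparisons (panels). Points are estimates and lines 95% confidence intervals, with 7 mice per group. Red marks an adjusted p under 0.1, reached only by Ces1b and Ces1g in both diet comparisons.

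The next comparisons asked what loss of ChemR23 did on each diet. On the lean diet 0 of 10 members passed (limma, none at an unadjusted p under 0.05), while 16.3% of 13031 genes did (1042 higher and 1081 lower, or 392 and 1753 with equal read totals). Ces1b was at 353, 453 and 678 in WT lean and at 433, 501 and 1025 in KO lean mice, a log2 fold change of 0.36 ± 0.21 (adjusted p = 0.274). Ces1g was at 958, 1495 and 2297 in WT lean and at 692, 1086 and 1901 in KO lean mice (-0.35 ± 0.23, adjusted p = 0.34). The groups of all 10 members overlapped, and 0.744% of genes tested had no overlap. The intervals of the other 8 lay between -1.16 and 0.84, both bounds from Ces1d. With library quality weights Ces1g (-0.63, adjusted p = 0.0368) and Ces2a (-0.45, adjusted p = 0.0425) were called lower in KO lean mice, a setting that called 33% of all genes and 17.1% lower. These 2 of 10 lay near that share, and edgeR and DESeq2 called 0 members. The Kupffer cell and macrophage sum was 4066 to 8986 in WT lean and 9462 to 19261 in KO lean mice, with 8 of 9 markers higher (C1qa by 1.01 and Cd5l by 1.32 on the log2 scale). With the identifier number as a block none of the 9 was called (smallest adjusted p = 0.111), and 3 genes were called in all. Of the other marker lists, 1 endothelial gene was higher, and 1 stellate and 1 bile duct gene were lower in KO lean mice, none of them with the block. The Kupffer cell sum's part in the members' values was not tested.

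In obese mice 0 of 10 members passed as well (limma, edgeR and DESeq2, none at an unadjusted p under 0.05 in limma), against 0.0141% of 14162 genes called. Log2 fold changes ran from -0.35 (Ces3b, 95% confidence interval -0.80 to 0.10) to 0.23 (Ces1g, -0.15 to 0.60). Ces1b differed by -0.00 (interval -0.37 to 0.36), with 1003, 1229 and 1615 in WT obese and 891, 1197 and 2309 in KO obese mice. The groups of every member overlapped, while 0.0282% of genes tested did not, and no marker gene was called here or with RvE1.

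RvE1 was compared with vehicle in obese mice of each genotype. In WT mice 0 of 10 members passed (limma), against 0% of 13085 genes called. There 795 genes, 1 of them a member, had an unadjusted p under 0.05, edgeR called 1 gene and DESeq2 25. That member was Ces3b, with 7331, 11335 and 15722 in WT obese and 4668, 6752 and 7389 in WT obese+RvE1 mice. Only the highest treated mouse reached the range of the vehicle group, and 0.107% of genes tested had no overlap. Ces3b had a log2 fold change of -0.80 ± 0.16 (unadjusted p = 0.000152, adjusted p = 0.772), and 1 gene had a smaller p. DESeq2 on the recovered reads called it (-0.83, adjusted p = 0.00579), edgeR did not (-0.83, adjusted p = 0.585), and the estimate stayed between -0.90 and -0.71 in 14 fits without 1 mouse. With the identifier number as a block (limma, correlation 0.37) Ces3b was not called (adjusted p = 0.999996). The treated mice came from numbers 30 and 7 and the vehicle mice from numbers 6, 22 and 27. Treatment and number could thus not be told apart. Ces3a, its near copy, had 20639, 29463 and 40151 in WT obese and 22885, 25948 and 35403 in WT obese+RvE1 mice (-0.11, 95% confidence interval -0.41 to 0.19).

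In KO mice 0 of 10 members passed (limma and edgeR), against 0% of 14207 genes called. Unadjusted p was under 0.05 in 1179 genes, and DESeq2 called 17, none of them a member. Ces2c had 232, 537 and 668 in KO obese and 164, 245 and 537 in KO obese+RvE1 mice, a log2 fold change of -0.82 ± 0.28 (unadjusted p = 0.01, adjusted p = 0.557). Ces3b had 5103, 8636 and 11896 in KO obese and 2362, 6089 and 9177 in KO obese+RvE1 mice (-0.67 ± 0.30, adjusted p = 0.582). For both the treated mice tended to the lower end, but the ranges overlapped, as did those of the other members (0.0211% of genes tested had no overlap). All 10 estimates were below 0 in KO mice, 8 of them between -0.43 and -0.04, where the median of all genes was -0.01. The share of all genes below 0 was not counted. In other settings, estimates of members including Ces1c, Ces1e, Ces1f, Ces1g and Ces2a rose above 0 (up to 0.17 for Ces2a). Ces3b did not differ between genotypes in its response beyond error (interaction 0.13 ± 0.36, interval -0.61 to 0.87), and 0 of 10 members passed that interaction (limma, edgeR and DESeq2), against 0% of 13059 genes called and 311 at an unadjusted p under 0.05. Ces1b and Ces1g, the members that rose with diet, had log2 fold changes with RvE1 of -0.07 and 0.28 in WT and of -0.18 and -0.04 in KO mice.

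**Figure D3:**
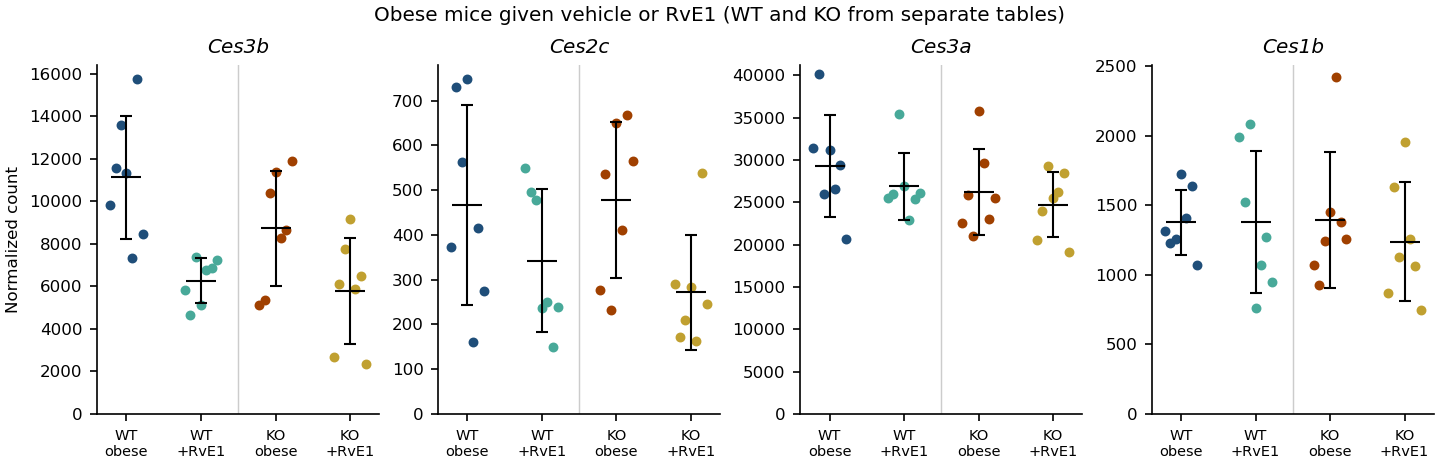
Normalized counts (y axes, from 0) of 4 members in obese mice given vehicle or RvE1 (x axes), by genotype. Points are mice, and bars are mean ± SD (n = 7). WT obese+RvE1 mice lay between 4668 and 7389 for Ces3b, against 7331 to 15722 in WT obese mice, and no difference passed the test.

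Each mouse identifier in the labels begins with a number, and within groups the levels of several members differed by it. There are 17 such numbers, the labels do not say what they stand for, and number 23 alone held mice of 2 groups, so other groups could not be compared within a number. Ces1d was at 13268 and 13673 in the WT lean mice of number 21 and at 2100 to 5253 in the other 5. In KO lean mice it was at 8699 to 12818 in the 3 mice of number 20 and at 2591 to 5433 in the other 4. The lean mice thus fell into separate ranges for Ces1d. Between these numbers lay 84.5% of the within-group variance of Ces1d (log2 scale), 66.8% of that of Ces1g, 57.2% of that of Ces1b and 12.9% of that of Ces3b.

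Leaving out all mice of 1 number at a time, chosen after seeing the data, moved some calls. Without number 21 the WT diet difference of Ces1d was 1.11 (adjusted p = 0.0206, called), and without number 20 the KO difference was 1.53 (adjusted p = 0.00677, called). Those fits called 480 of 14014 and 4199 of 14218 genes. Over all such omissions the difference of Ces1d ranged from 0.13 to 1.11 in WT and from 0.34 to 1.53 in KO mice. Ces1b stayed called without any of the 7 numbers in WT mice (1.20 to 1.46) and any of the 6 in KO mice (0.77 to 1.34, adjusted p up to 0.0943 without number 31). Ces1g stayed called in KO mice without any of the 6 (1.10 to 1.71) but was lost in WT mice without number 6 (0.50, adjusted p = 0.365), 8, 19 or 26. Without number 20, Ces1g (-0.73, adjusted p = 0.0421) and Ces2a (-0.53, adjusted p = 0.0568) were called lower in KO lean than in WT lean mice, with 2970 of 13031 genes called in that fit. With RvE1, Ces3b was called in WT mice without number 6 (-0.90, adjusted p = 0.032) and Ces2c in KO mice without number 10 (-1.16, adjusted p = 0.084). Those fits called 49 of 13085 and 329 of 14167 genes. Within number 23, Ces3b was at 11350 in the KO obese mouse and at 6474 and 2362 in the KO obese+RvE1 mice, too few for a test.

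**Figure D4:**
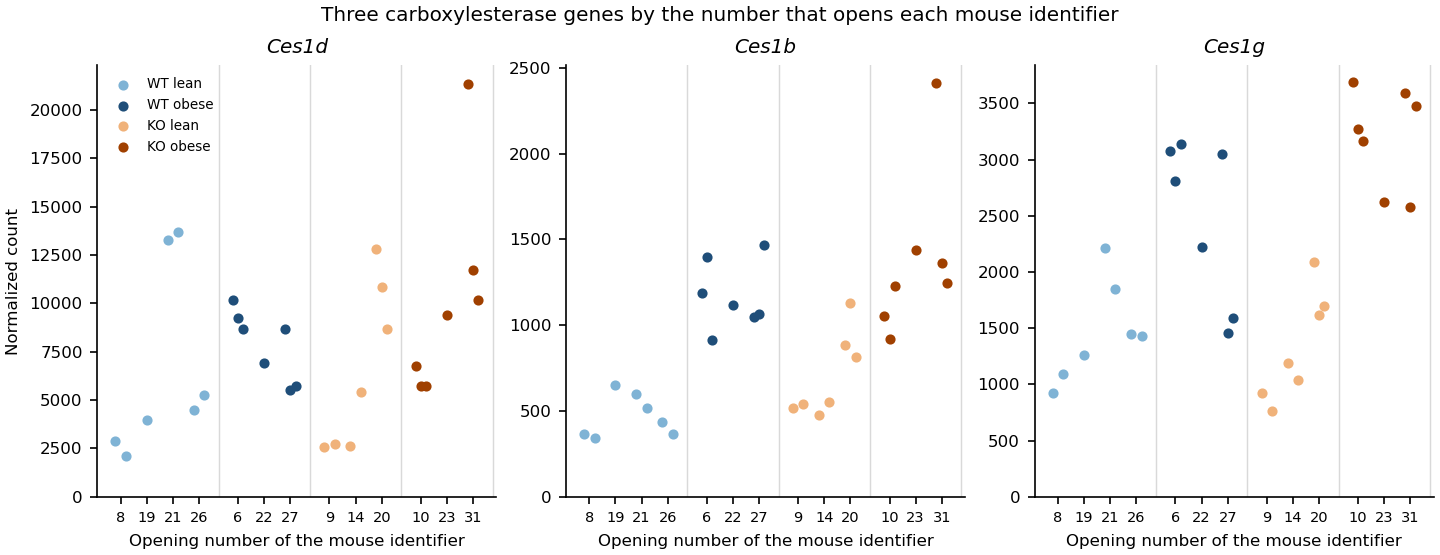
Normalized counts (y axes, from 0) of Ces1d, Ces1b and Ces1g by the opening number of the mouse identifier (x axes) in the 4 groups without RvE1. Points are mice. Ces1d of number 21 (13268 and 13673) and of number 20 (8699 to 12818) stood above the other lean mice, while Ces1b of all WT obese mice stood above all WT lean mice.

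Members also varied together within groups. Deviations of the log2 values from the group mean over 42 mice were correlated in 45 pairs of members, as a description without a p. All values of a mouse share its library and scaling. Differences between identifier numbers were not removed, so the 42 mice do not count as independent. Such differences held 84.5% of the within-group variance of Ces1d, 66.8% of that of Ces1g and 55.5% of that of Ces1c. Their part in r was not tested. Pearson's r was highest for Ces1e and Ces1f (0.90), Ces1c and Ces2a (0.89) and Ces1b and Ces1c (0.84). Ces2a and Ces3a followed at 0.77, and Ces1d and Ces1g at 0.73. The near copies Ces3a and Ces3b reached 0.51, and Ces2a and Ces2c 0.44. Whether misplaced reads added to the r of near copies, Ces1b and Ces1c among them, was not tested. Beside its 0.73 with Ces1d, Ces1g had an r of -0.04 (Ces3b) to 0.35 (Ces1f) with the other members, and of 0.30 with Ces1b.

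Among 9418 genes compared (mean of at least 100), genes outside the family were named from the 3 most like each member by the same r. For Ces1d these included Gsta3 (0.90) and Cry1 (0.86). For Ces1b they were Gnmt, Ubl3 and Haao (each 0.83), and for Ces1g Adh1 (0.82), Slc16a7 (0.82) and Mme (0.80). Ces1c was most like Proc (0.88), Cml1 and A730098P11Rik (both 0.87). Ces2a was closest to C1ra (0.93), Serpina1d (0.91) and Serpina1c (0.90), and Ces3a to C1ra (0.87), Cyp2c44 (0.85) and Cyp1a2 (0.82). Those of Ces1e included Spc24 (0.84) and Tk1 (0.82), and Ces1f was most like Akr1c12 (0.80), Galm (0.78) and Tk1 (0.78). For Ces2c they included Tuft1 (0.77) and Ate1 (0.74), and for Ces3b they were Serpina4-ps1 (0.83), Cyp2c54 (0.75) and Lifr (0.74). The median gene had an r of -0.01 to 0.12 with a member.

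**Figure D5:**
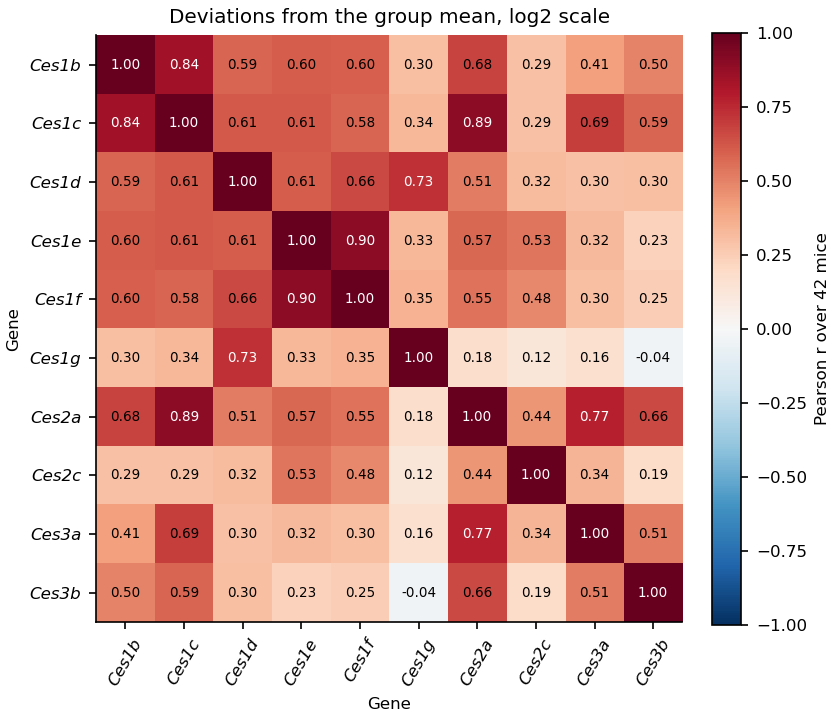
Pearson's r (colour and printed value) between members (both axes) of deviations from the group mean of log2(normalized count + 1) over 42 mice. Differences between identifier numbers were not removed. The pairs Ces1e with Ces1f (0.90), Ces1c with Ces2a (0.89) and Ces1b with Ces1c (0.84) were highest, and Ces1g with Ces3b (-0.04) lowest.

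Of 10 other carboxylesterase family genes, 9 were listed in some table, and 5 or 6 passed the filter in a comparison. Ces4a rose in WT obese mice (0.91 ± 0.27, adjusted p = 0.0792), from 31.8 ± 8.46 to 64.0 ± 25.2 (SD, n = 7). Ces2g rose in KO obese mice (0.37 ± 0.11, adjusted p = 0.0326) and was lower in KO lean than in WT lean mice (-0.38 ± 0.12, adjusted p = 0.0614). With the block the calls on Ces4a (adjusted p = 0.191) and on Ces2g in lean mice (adjusted p = 0.151) were lost. Ces2b, named after its values were seen, had mean normalized counts of 24.8 ± 30.2 in KO obese and 1.00 ± 1.07 in KO obese+RvE1 mice, with 1 and 2 of 7 libraries at 0, and did not pass (adjusted p = 0.557). Ces2d-ps, Ces2e and Ces2h did not pass in any comparison where they were tested. Ces1a, Ces2f and Ces5a were under the filter wherever listed.

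Genes of neighbouring steps were counted from fixed lists. Over all genes, 3.65% were called higher and 2.61% lower in WT obese mice, and 12% higher and 12.1% lower in KO obese mice, so several of the counts for KO mice, such as 3 of 13 esterases and 4 of 12 lipoprotein genes, lay near the 24.1% called in all. Among 17 lipases with their cofactors and inhibitors, 2 fell in WT obese and 7 in KO obese mice and none rose. They included G0s2, an inhibitor of adipose triglyceride lipase (-1.29 ± 0.35 in WT and -1.76 ± 0.18 in KO), and Lipa, the lysosomal acid lipase (-0.58 ± 0.15 and -0.72 ± 0.15). Of 12 genes for assembly and secretion of very low density lipoprotein, 1 fell in WT obese mice, and 2 rose and 2 fell in KO obese mice, Tm6sf2 falling in both (-0.61 ± 0.15 and -0.56 ± 0.15). Of 13 other esterases and hydrolases, 2 rose in WT obese mice, and 2 rose and 1 fell in KO obese mice. Ephx1, the microsomal epoxide hydrolase, rose in both (0.69 ± 0.12 and 0.79 ± 0.20). Of 20 nuclear receptors and factors, 3 rose in WT obese mice, and 7 rose and 2 fell in KO obese mice, with Pparg rising in both (1.62 ± 0.39 and 2.05 ± 0.37). Nr1i3, the xenobiotic receptor CAR, rose in KO obese mice (0.60 ± 0.10, adjusted p = 0.00388). Of the 15 targets of the xenobiotic receptors CAR and PXR, 4 of 14 tested rose in WT obese mice, and 7 of 15 rose and 1 fell in KO obese mice, led by Cyp2b9 (6.28 ± 0.82 and 7.64 ± 0.98) and Cyp2b10 (3.20 ± 0.54 and 4.22 ± 0.65). In KO lean against WT lean mice 2 lipase genes were higher, 2 lipoprotein genes lower, 3 esterases higher and 1 lower, and 1 gene higher and 1 lower in each of the receptor and xenobiotic lists, where 16.3% of all genes were called. With the identifier number as a block, 0 of these calls remained (smallest adjusted p = 0.138). In WT obese mice the block left 1 esterase (Ephx1) and 4 xenobiotic targets called. In KO obese mice it left 3 lipases, 1 lipoprotein gene, 1 esterase, 3 receptors or factors and 6 xenobiotic targets, against 7.44% of all genes. In KO obese vs WT obese and both RvE1 comparisons these 5 lists had 0 calls (limma), as had both interactions.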

How the data were processed

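Whole liver RNA of 42 mice was sequenced. The authors made TruSeq stranded libraries, aligned read pairs to mm10 with Bowtie2, counted them per gene with featureCounts (both ends mapped) and scaled the counts of each comparison with DESeq2. The sources used here do not state versions, annotation or strandedness of counting. The deposited signal values are these normalized counts, 14 libraries per table, and groups were compared only within a table. Log2 fold changes and p-values of the authors, in the same tables, were not used.

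All values (100%) were whole reads within 0.1 once divided by the worth of 1 read per library, and repeated libraries had 0 differing reads between tables, so reads were recovered for count tests. No 2 libraries of a group agreed within sampling noise (smallest chi-square per gene 22.6 over 126 pairs).

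Groups came from the labels. Each comparison was fitted by limma-trend (limma 3.58.1 in R 4.3.3), two-sided. The response was log2 of the normalized count + 1 for all genes whose mean reached 5, with p BH-adjusted over all genes tested and called at an adjusted p under 0.1. Fold changes are on that scale. The interactions formed each difference in its own table. In them, rows with date-like gene names were left out. Alternatives were pseudocounts of 0.5 and 4, no filter, TMM, equal totals, edgeR (4.0.16), DESeq2 (1.42.0), quality weights, the identifier number as a random block, adjusted p under 0.05, a fold above 1.5 and leaving out each mouse. Leaving out identifier numbers was added after seeing the data. Same-numbered mice share an opening number in the labels only.

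The members and gene lists were chosen with earlier results of these data known. All 10 members were named, other family genes with values where called, of other lists at most 2 genes per direction and comparison, and like genes from the 3 closest per member, some of which are not reported here. Lists for hepatocytes, Kupffer cells, endothelial, stellate, bile duct, erythroid, acinar and fat cells served as markers. Coordinates and lengths are from GENCODE M21 (GRCm38, the same build as mm10). The fits were run on simulated data with known changes. These simulations drew libraries independently, with a common spread for all genes. Likeness within identifier numbers was not simulated, so its effect on the calls was not tested there.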

Additional observations from a re-analysis of the deposited data

Results flagged for a closer look

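In 60 sets of 7 values (10 members in 6 groups), 6 held a mouse whose gap to its nearest neighbour was over Dixon's 95% critical share of the whole range. Chance gives about 1 in 20 sets where values are normally distributed and sets independent. Here the values were normalized counts without a log, and the members shared the same mice, so that rate is a rough guide. All 6 flagged values were high. KO obese replicate 5 was high for Ces1b (2412, next 1436, gap 0.654 of the range) and for Ces1d (21351, next 11718, gap 0.616), and leaving out the 3 mice of its identifier number lowered the KO diet difference of Ces1b from 0.98 to 0.77. WT obese replicate 4 was high for Ces1e (3791, next 2557, gap 0.595). KO lean replicate 4 was high for Ces2c (619, next 385, gap 0.59). WT obese+RvE1 replicate 3 was high for Ces3a (35403, next 26904, gap 0.679). KO obese+RvE1 replicate 6 was high for Ces2c (537, next 290, gap 0.663).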

How the results depend on the processing

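Over 2640 values of members in other settings, 2612 kept their side of the threshold. A call was lost in 14 and gained in 14, and 0 called values changed sign. These values include the settings of adjusted p under 0.05 and a fold above 1.5, which changed the threshold and not the fit. Most were of members that the main fit had not called. The 14 lost calls were all of Ces1g in WT obese vs WT lean mice. Of the members called in WT obese vs WT lean mice (2), 1 was left with equal totals, with the identifier number as replicate block, and at an adjusted p under 0.05, and 1 to 2 without 1 mouse. Leaving out identifier number 6, 8, 19 or 26 left 1, Ces1b each time. Library quality weights gave 2 calls in KO lean vs WT lean and 1 (Ces1g) in the interaction of diet and genotype, against 0, and omitting number 20 gave 2 in KO lean vs WT lean. For RvE1 in WT mice DESeq2 gave 1 (Ces3b), as did omitting number 6, and in KO mice omitting number 10 gave 1 (Ces2c). Ces1d was called higher in KO obese mice with quality weights (0.95, adjusted p = 0.0437), with equal totals (0.92, adjusted p = 0.077) and without KO lean replicate 3 (0.99, adjusted p = 0.0973), and Ces2c was called there without number 10 (0.76, adjusted p = 0.0687). In that order, these fits called 5737, 3183, 2967 and 1989 genes in all. Without 1 mouse the counts of members called ran from 2 to 3 in KO obese vs KO lean and were 0 in KO lean vs WT lean, KO obese vs WT obese, both RvE1 comparisons and both interactions. The causes were not tested.

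The block (correlation within numbers 0.26 and 0.24 in the WT and KO diet comparisons) changed no other call of a member, but cut calls over all genes from 878 to 279 in WT obese vs WT lean, from 3422 to 1057 in KO obese vs KO lean and from 2123 to 3 in KO lean vs WT lean. Quality weights raised them to 1605, 5737 and 4297, DESeq2 gave 1367, 3962 and 2582, and edgeR on recovered reads 898, 3574 and 2136. Leaving out a mouse or a number gave 314 to 1290, 832 to 4503 and 8 to 3540. In the interaction of diet and genotype, 1 became 926 with DESeq2 and 2563 with quality weights. Equal totals moved the median gene by 0.14 in KO obese vs KO lean (2555 higher and 628 lower calls against 1704 and 1718) and by -0.12 in KO lean vs WT lean (392 and 1753 against 1042 and 1081), and in WT obese vs WT lean it gave 349 and 161 against 512 and 366. Ces1b (1.12) and Ces1g (1.48) stayed above that shift in KO obese mice. With the longest transcript as length, Ces1f ranked 4 in place of 5 in 3 groups. The lowest normalized count of a member was 126.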
